A study of Mus musculus with 16 samples.

Results

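Splenic plasmacytoid dendritic cells (pDCs) that had lost Trim33 were compared with their WT counterparts across all genes with a mean TPM (transcript abundance scaled to the same total in each library) of at least 1 over the 6 pDC libraries, which kept 11299 of the 17128 genes listed for pDCs. TRIM33 is a chromatin-associated E3 ubiquitin ligase and transcriptional cofactor of the TIF1 family. The WT mice were Trim33 fl/fl, and the cKO mice were Trim33 fl/fl Itgax-Cre, so both groups carried the floxed alleles and the Cre recombinase was present in the cKO mice only. All mice were on the C57BL/6 background and 6 to 8 weeks old. Itgax encodes CD11c, so the Cre acts in CD11c-expressing cells and is not particular to pDCs. The cells were sorted from spleen as SiglecH+ cells with CD11c after depletion of other lineages, and each library pooled cells of several mice, with more cKO than WT mice to a library. The groups held 3 WT and 3 cKO pDC libraries out of 16 in the series, the others being 10 libraries of conventional DCs (cDC1s and cDC2s).

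pDCs sense viral nucleic acids through endosomal receptors such as TLR7 and TLR9 and release type I interferon. They depend on the transcription factor TCF4 (E2-2) for their identity and present antigen on MHC class II less well than conventional DCs do. They arise from dividing progenitors in the bone marrow and divide little once they have matured in the spleen.

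Estimated depth was even, at 18.11 to 18.42 M reads a library, and 3 reads on a 2000-base transcript were worth 0.171 to 0.179 TPM. Across genes, the correlation was 0.988 to 0.992 within a group and 0.976 to 0.986 between WT and cKO libraries. Trim33 (chromosome 3, 103279293 to 103358770, GRCm38.p6) had 20.6, 23.8 and 22.3 TPM in WT libraries and 12.6, 16.5 and 11.7 TPM in cKO libraries, so the groups did not overlap, and 61.2% of the WT level remained in the mean of the cKO libraries. Its log2 fold change of −0.68 (SE 0.13) missed the calling rule described next (limma adjusted p = 0.0301) and met it once the replicate number was a block (adjusted p = 0.00361). Whether the remaining reads came from the deleted part of the gene cannot be read from gene-level values. The markers that define pDCs were abundant in both groups: the receptor gene Siglech, a target of the sort, was at 4683 to 5131 TPM in WT and 4367 to 4674 TPM in cKO libraries, and Bst2 at 3589 to 3691 and 3378 to 3640 TPM.

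A gene was called where its limma adjusted p did not exceed 0.01 and its log2 fold change, cKO over WT, was 0.5 or more in size. Fold changes are on the log2(TPM + 1) scale, on which changes of low genes are understated. By this rule 92 genes rose (0.814% of those tested) and 27 fell (0.239%), 1.05% in all. The replicate numbers were taken as pairs (the check is given with the methods). A fit with the replicate number as a block called 2.96% of genes, 2.30% higher and 0.664% lower. The median log2 fold change of all genes was −0.05, and 38.5% of genes had a positive value. At an unadjusted p under 0.05, 8.89% of genes were higher and 11.9% lower, 20.8% in all. These shares are the background for the counts at this level given for lists below. The cKO libraries all lay above the WT libraries for 10.8% of genes and all below for 16.7%. All 92 called rises and all 27 called falls were separated in this way. A lack of overlap given below for a called gene thus adds nothing to its call. Of the 92 rises, 23 were of genes with a WT mean under 1 TPM, which passed the filter only through their cKO values and could not have been called lower, 41 were at 1 to 10 TPM, 19 at 10 to 100 TPM and 9 at 100 TPM or more; the falls numbered 0, 4, 17 and 6. The count of calls moved with the library left out: it was 12 without WT library 3, 37 without cKO library 2, 52, 55 and 57 without WT library 1, cKO library 1 and WT library 2, and 97 without cKO library 3.

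The largest group of called genes serves DNA replication and mitosis. Of 303 tested genes on 9 cell cycle lists, 42 rose and 0 fell (96 higher with the block), 261 had a positive log2 fold change, and their median was 0.52 against −0.05 for all genes. The list members together took 7887, 7899 and 8010 TPM in the WT libraries and 11150, 10391 and 9388 TPM in the cKO libraries. The groups did not overlap, and within the same-numbered pairs the sums were 1.41, 1.32 and 1.17 times as high in cKO libraries. In bulk libraries, a larger share of cells that transcribe a gene and more of its RNA in each cell cannot be told apart. The number of these calls moved with the library left out: it was 0 without WT library 3, 8 without cKO library 2, 12 without WT library 1 or WT library 2, 19 without cKO library 1 and 53 without cKO library 3, and the median was between 0.46 and 0.58 over the 6 fits. The filter, a mean over both groups, admits genes that are low in WT libraries only where their cKO values are high, and at a mean of at least 5 TPM 27 of 194 genes rose, with a median of 0.27.

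**Figure D1:**
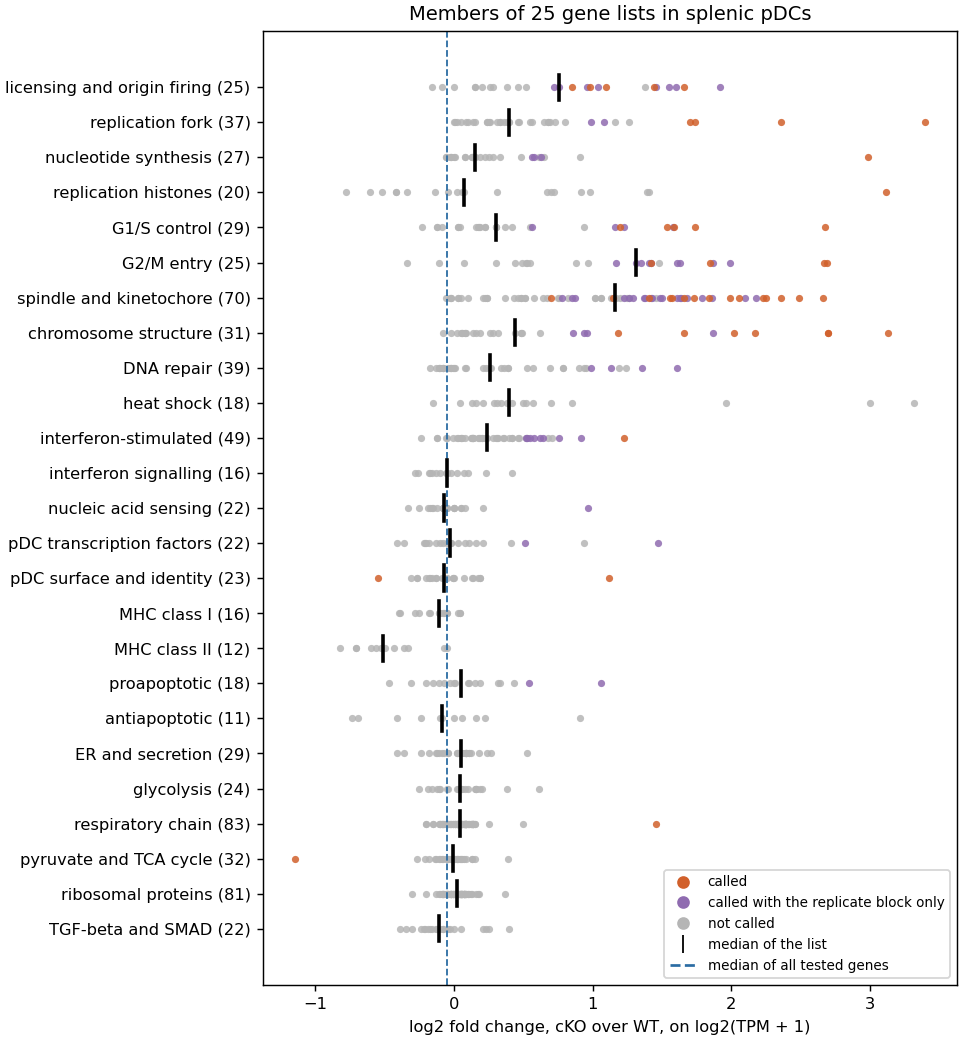
Log2 fold change (x axis, cKO over WT on log2(TPM + 1)) of the tested members of 25 gene lists (y axis, number tested in parentheses) in splenic pDCs, with called genes in orange, genes called only with the replicate block in purple, list medians as black bars and the median of all tested genes as a dashed line. The lists for G2/M entry (median 1.31) and for spindle and kinetochore (1.16) lie furthest to the right, and MHC class II lies furthest to the left (−0.51). At a mean of at least 5 TPM the G2/M and spindle medians were 0.54 and 0.70.

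Stretches of 150 bases before the transcription start are shown for the non-histone cell cycle genes with the largest rises that had a single RefSeq promoter entry (GRCm38.p6). They run 5′ to 3′ on the strand of the gene, and capitals mark CCAAT, the box bound by NF-Y, and the cell cycle genes homology region (CHR) letters TTTGAA or TTCGAA, which the DREAM and MMB complexes are known to bind, each on either strand. Pclaf lies on the plus strand (chr9:65890173-65890322), Top2a on the minus strand (chr11:99024190-99024339), Rrm2 on the plus strand (chr12:24708104-24708253) and Ccnb2 on the minus strand (chr9:70421555-70421704). Within these stretches CCAAT was in each, and CHR letters were in Top2a only.
Pclaf: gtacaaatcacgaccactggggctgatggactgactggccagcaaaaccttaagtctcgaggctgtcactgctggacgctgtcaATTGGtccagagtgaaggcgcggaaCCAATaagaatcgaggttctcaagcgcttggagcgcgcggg
Top2a: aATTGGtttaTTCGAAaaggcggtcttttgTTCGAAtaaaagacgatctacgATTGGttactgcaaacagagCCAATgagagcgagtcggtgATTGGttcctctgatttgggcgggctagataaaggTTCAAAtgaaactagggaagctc
Rrm2: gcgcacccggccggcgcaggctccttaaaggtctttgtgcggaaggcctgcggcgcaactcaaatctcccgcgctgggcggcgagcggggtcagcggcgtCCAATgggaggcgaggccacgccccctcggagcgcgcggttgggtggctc
Ccnb2: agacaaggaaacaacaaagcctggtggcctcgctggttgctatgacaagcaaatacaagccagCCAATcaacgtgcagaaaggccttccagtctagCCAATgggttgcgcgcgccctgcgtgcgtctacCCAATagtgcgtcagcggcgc

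Over whole 300-base windows (250 before the start and 50 after it), CCAAT was in 25 of the 34 called cell cycle genes with an entry (73.5%), against 43.6% of the 9149 tested genes with one and 37.4% of all windows in the table. CHR letters were in 20 of the 34 (58.8%), against 16.9% of tested genes and 19.2% of all windows. Both were in 19 of the 34 (55.9%), against 7.18% of tested genes. The E2F letters TTTCCCGC, TTTGGCGC, TTTCGCGC or TTTGCCGC were in 9 of the 34 (26.5%), among them Pclaf, Mcm5, Mcm7, E2f2, Lig1 and Uhrf1, against 4.82% of tested genes. All tested cell cycle genes, called or not, held CCAAT in 61.9%, CHR letters in 36.1% and E2F letters in 19.4% of 252 windows. The 36 other called rises with an entry held CCAAT in 27.8%, CHR letters in 33.3% and E2F letters in 5.56%. A match of letters is a description and no binding was measured. The short CHR and CCAAT letters do not overlap each other, and a gene with several starts counted once if any of its windows held the letters.

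Replication genes were called at several stages of the process. Among origin recognition, licensing and firing genes, 5 of 25 rose and 0 fell (13 higher with the block; median 0.76). Mcm5, a subunit of the helicase that is loaded onto origins, was at 10.2, 10.5 and 9.50 TPM in WT libraries and at 33.8, 30.9 and 23.4 TPM in cKO libraries (log2 fold change 1.44, SE 0.14, adjusted p = 0.00246). Mcm7 (0.85) and Mcm2 (0.98) of the same helicase, Cdc45 (1.66), which activates it, and Gins2 (1.10), a partner of CDC45, were also called. Every cKO library lay above every WT library for each of these 5 genes, as for every called rise.

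At the fork itself, 4 of 37 genes rose and 0 fell (6 higher with the block; median 0.40), and all 37 had log2 fold changes of at least 0.00. Pclaf, a partner of the sliding clamp PCNA, was at 2.12, 2.64 and 1.00 TPM in WT libraries and at 41.6, 33.0 and 17.5 TPM in cKO libraries. Uhrf1, which couples maintenance DNA methylation to replication, rose from 2.84, 2.19 and 1.59 TPM to 23.4, 15.2 and 9.83 TPM, and Lig1, the ligase that joins Okazaki fragments, from 4.09, 4.28 and 3.48 TPM to 19.0, 16.7 and 11.6 TPM. Pole, the catalytic subunit of the leading strand polymerase, was under 0.6 TPM in each WT library and at 2.42 to 5.53 TPM in cKO libraries. Pole passed the filter only through its cKO values and could not have been called lower. At a mean of at least 5 TPM, 3 of 29 fork genes rose, with a median of 0.33. As for every called rise, the smallest cKO value of each of the 4 called genes was above its largest WT value. In each of them cKO library 3 was the lowest of its group.

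Supply of deoxynucleotides was represented by 1 call. Rrm2, the S phase subunit of ribonucleotide reductase, was at 1.55, 1.76 and 1.28 TPM in WT libraries and at 28.2, 19.2 and 12.5 TPM in cKO libraries (log2 fold change 2.99, SE 0.26, adjusted p = 0.00157). The other 26 tested genes of nucleotide synthesis were not called, 4 of the 27 were called with the block, and the median was 0.15. Replication histone genes were poorly measured, with 20 of 62 members tested. H2ac24 rose from 4.81, 4.98 and 2.17 TPM to 55.6, 46.2 and 26.1 TPM, and it has near-identical copies among which reads can be split, so its level is uncertain. The median of the histone list was 0.07, and this sign changed among the scalings (−0.06 to 0.10).

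Regulators of the G1/S transition gave 5 rises and 0 falls among 29 tested genes (9 higher with the block; median 0.30). D-type cyclins, which activate CDK4 and CDK6, were the most abundant of the calls. Ccnd3 was at 166.1, 158.5 and 141.4 TPM in WT libraries and at 436.0, 329.3 and 317.0 TPM in cKO libraries (log2 fold change 1.2, SE 0.12, adjusted p = 0.00307). Ccnd2 was at 8.76, 8.20 and 7.81 TPM and at 30.6, 22.03 and 25.7 TPM (1.54, SE 0.12, adjusted p = 0.00157). Both separated the groups without overlap, as every called gene did. Ccne1, the cyclin partner of CDK2 (0.25 to 0.37 TPM in WT and 2.51 to 5.18 TPM in cKO libraries), the activator E2f2 (0.46 to 0.54 and 2.45 to 4.98 TPM) and the repressor E2f8 (0.49 to 1.08 and 6.17 to 15.99 TPM) started from low levels. Their WT means were under 1 TPM, so they passed the filter only through their cKO values and could not have been called lower. At a mean of at least 5 TPM, 3 of 23 genes rose, with a median of 0.22. With the block, Myc (1.23), Cdk2 (0.56), Cks1b (1.16) and Mxd3 (1.58) were called as well. The brakes of this step were not called: Rb1 had a log2 fold change of −0.12 (adjusted p = 0.372), Cdkn1b −0.12 (0.629) and Cdkn1a 0.37 (0.504).

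Mitotic genes had the largest medians of any lists of over 10 tested genes. Of 25 G2/M genes, 4 rose (13 with the block, median 1.31), and of 70 spindle, kinetochore and checkpoint genes, 15 rose (35 with the block, median 1.16), with 0 falls in either list. The filter admits members low in WT libraries only through their cKO values. At a mean of at least 5 TPM the medians were 0.54 (12 G2/M genes) and 0.70 (31 spindle genes). Cyclin A2 (Ccna2) was at 1.04, 1.03 and 0.91 TPM in WT libraries and at 18.3, 11.6 and 7.71 TPM in cKO libraries, and cyclin B2 (Ccnb2), an activator of CDK1, at 0.40, 1.02 and 0.48 TPM and at 11.5, 10.7 and 6.27 TPM. Birc5 (survivin), a subunit of the chromosomal passenger complex, was at 2.89, 2.88 and 3.24 TPM and at 31.5, 19.9 and 11.7 TPM. These genes were at 3.24 TPM or less in WT libraries and at 6.27 to 31.5 TPM in cKO libraries. The mitotic motor Kif11 (log2 fold change 2.49), the spindle protein Nusap1 (2.66), the kinesin Kif22 (2.25), the passenger protein Cdca8 (2.23), the kinetochore subunit Nuf2 (2.06) and the kinases Nek2 (1.85) and Pkmyt1 (1.42) also rose. Cdk1 itself, at 0.22 to 0.49 TPM in WT and 1.59 to 3.66 TPM in cKO libraries, was called only with the block (adjusted p = 0.00743).

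Chromosome packing and segregation gave 7 rises and 0 falls among 31 genes (11 higher with the block; median 0.44). Top2a, the topoisomerase that untangles sister chromatids (chromosome 11, 98992947 to 99024199), was at 1.94, 2.37 and 1.74 TPM in WT libraries and at 36.8, 27.2 and 16.1 TPM in cKO libraries, 19.0, 11.5 and 9.25 times as high within the pairs (log2 fold change 3.13, SE 0.26, adjusted p = 0.00157). Stmn1, which destabilizes microtubules, was the most abundant of the mitotic calls, at 17.0, 19.0 and 16.8 TPM and at 159.3, 132.0 and 81.6 TPM. Mki67, the proliferation marker Ki-67, was at 2.16, 1.88 and 1.68 TPM and at 26.6, 21.5 and 9.71 TPM. In each of these the cKO library 3 was the lowest of its group and still above every WT library. The condensin genes Ncaph (2.17), Ncapg (2.02) and Ncapd2 (1.18) and the cohesin regulator Cdca5 (1.66) rose too. Ncaph and Ncapg had WT means of 0.49 and 0.193 TPM, so they passed the filter only through their cKO values and could not have been called lower. At a mean of at least 5 TPM, 4 of 27 genes rose, with a median of 0.28.

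**Figure D2:**
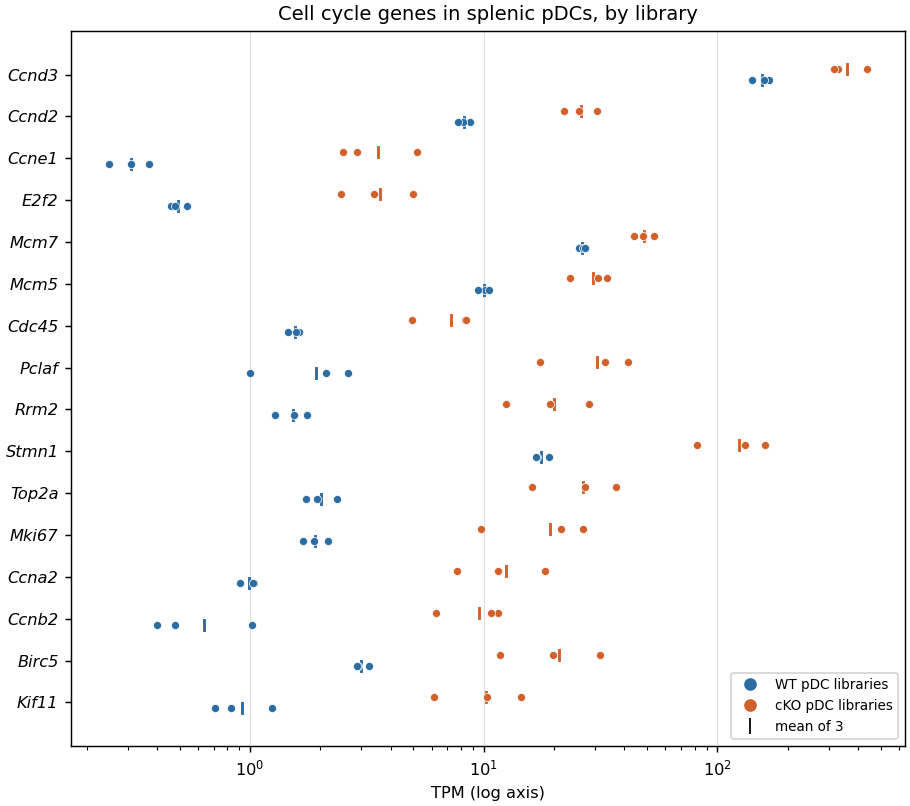
TPM (x axis, log scale) of 16 cell cycle genes (y axis) in each WT (blue) and cKO (orange) pDC library, with the mean of 3 libraries as a bar. All genes shown were called, and no called gene has overlapping groups. Ccnd3 is the most abundant at 141.4 to 436.0 TPM, and most mitotic genes move from about 1 or 2 TPM in WT libraries to between 6.11 and 36.8 TPM in cKO libraries.

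Genes on the DNA repair list had a median of 0.26 with 0 of 39 called by the limma rule (4 in the blocked fit, and 15 at an unadjusted p under 0.05). Values with low p included Rad54l of homologous recombination (log2 fold change 1.36, adjusted p = 0.0129), the Fanconi anaemia gene Fanca (0.90, 0.0149) and the damage-marking histone gene H2ax (0.99, 0.0149). Targets of p53, which is activated by DNA damage, had a median of 0.04, with 0 of 18 called in either fit and 4 at an unadjusted p under 0.05. Some cell cycle and repair genes missed the filter of 1 TPM. E2f7 had means of 0.117 TPM in WT and 1.71 TPM in cKO libraries, Cenpf 0.107 and 1.52, Cdc25c 0.147 and 1.23, Ska1 0.0167 and 1.23, Aspm 0.38 and 1.40, Rad54b 0.157 and 1.80, and the histone gene H2bc11 0.157 and 1.59 TPM, while the histone genes H3c13 (1.26 and 0 TPM) and H2ac7 (1.18 and 0.57 TPM) were lower in cKO libraries. They were chosen after their values were seen and were not tested.

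Markers of other cells were set beside these genes. Of 10 neutrophil markers 6 were tested and 0 called, all 6 had positive values (median 1.36), and the summed level of the list was 13.2 to 32.8 TPM in WT libraries and 34.6 to 144 TPM in cKO libraries, highest in cKO library 1, where S100a9 was at 42.2 TPM and Ngp at 53.7 TPM. The early granulocyte genes Mpo and Elane stayed under 1 TPM in each library. In pair 2 the neutrophil sum was 1.25 times as high and the monocyte and macrophage sum 0.985 times as high in the cKO library, while the cell cycle sum was 1.32 times and Top2a 11.5 times as high. Without cKO library 1 the cell cycle median was 0.46 with 19 calls; beyond these values the part of other cells in the cell cycle rise was not tested. Of 11 tested monocyte and macrophage markers Itgam rose, Cx3cr1 was called with the block (1.34, adjusted p = 0.195 without it), 10 had positive values, 7 were higher at an unadjusted p under 0.05 (background 8.89%), and the median was 0.80. Their sums, 999 to 1050 TPM in WT and 1034 to 1352 TPM in cKO libraries, were largely Cd68 (872.5 to 900.4 and 883.0 to 1085 TPM); in pair 2 Cd14 was at 3.93 and 5.33 TPM and C1qa at 24.5 and 22.8 TPM. Progenitor markers summed to 590 to 660 TPM in WT and 612 to 643 TPM in cKO libraries. Much of this sum was Dntt (means of 204 TPM in WT and 228 TPM in cKO libraries) and Il7r (181 and 150 TPM), so it says little on rarer transcripts. Of 8 tested progenitor markers 0 were called, 5 had positive values and the median was 0.15, with Cd93 called with the block (1.00, adjusted p = 0.00252). Below the filter, Cd34 was at 0.09, 0.19 and 0.00 TPM in WT and 0.80, 0.87 and 0.24 TPM in cKO libraries, and Rag1 had means of 0.747 and 0.55 TPM.

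**Figure D3:**
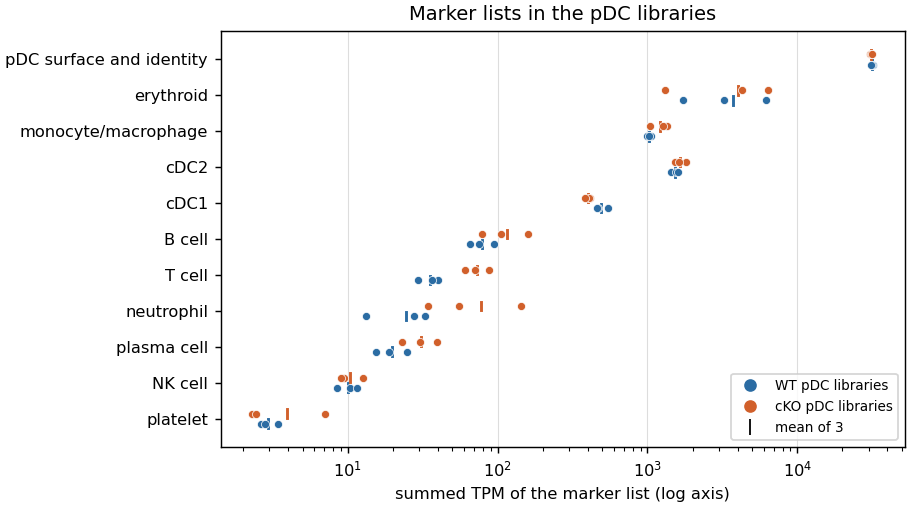
Summed TPM (x axis, log scale) of the marker lists of pDCs and of other cell types (y axis) in each WT (blue) and cKO (orange) pDC library, with the mean of 3 as a bar. The pDC list stays at 30385 to 32260 TPM in all 6 libraries, and the neutrophil list, at 13.2 to 144 TPM, has its highest value in 1 cKO library; Itgam counts in both the monocyte/macrophage and the cDC2 lists.

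Outside the cell cycle lists 50 genes rose. The lists do not hold every gene of replication and repair. The histone chaperone gene Asf1b and the DNA glycosylase gene Neil3, picked after their values were seen, are among the 50. Tuft1, first described as a protein of developing tooth enamel (chromosome 3, 94612753 to 94658872), was at 1.93, 2.52 and 2.47 TPM in WT libraries and at 47.4, 43.3 and 49.6 TPM in cKO libraries, with a tight spread in both groups. Epb41l4b, a FERM domain protein gene, was at 0.46, 0.40 and 0.32 TPM and at 11.7, 7.29 and 5.90 TPM (log2 fold change 2.69, SE 0.22, adjusted p = 0.00157). Selenbp2, a gene of the selenium-binding protein family, was listed at 0 in all 3 WT libraries and at 6.14, 4.46 and 4.42 TPM in cKO libraries, and Cnpy1 at 0 and at 3.07, 2.65 and 2.28 TPM. Tuft1, Epb41l4b, Selenbp2 and Cnpy1 were at 2.52 TPM or less in every WT library.

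Genes near Itgax, whose regulatory sequence drives the Cre, were looked at as a group of 11 tested genes within 200 kb, of which 3 rose. Itgam, the integrin subunit CD11b (chromosome 7, 128062640 to 128118491), was at 2.48, 1.65 and 1.30 TPM in WT libraries and at 25.4, 19.1 and 16.2 TPM in cKO libraries (log2 fold change 2.92, SE 0.20, adjusted p = 9.52e-04). Cox6a2, a cytochrome c oxidase subunit gene of muscle that pDCs express strongly, was at 1144, 1261 and 1160 TPM and at 3740, 2755 and 3354 TPM (1.46, SE 0.11, adjusted p = 0.00128), and Itgad, the integrin subunit CD11d, at 12.9, 15.4 and 15.9 TPM and at 26.1, 26.7 and 29.6 TPM (0.86, SE 0.10). The groups did not overlap for any of these 3, as for every called gene. Itgax itself had a log2 fold change of 0.34 (adjusted p = 0.0338), Pycard one of 0.39 (0.0499), and the 6 remaining genes of the interval had values of −0.10 to 0.09. Whether the Cre transgene bears on the levels of these genes was not tested. Among 83 tested respiratory chain genes Cox6a2 was the 1 call, and the list median was 0.04.

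Among the other rises were single genes best known from lymphocytes. Cd22 and Thy1 belong to marker lists, and the others given here were picked from the calls after their values were seen and represent no list. Cd22, an inhibitory receptor of B cells that binds sialic acid, was at 3.17, 2.72 and 3.17 TPM in WT libraries and at 24.3, 11.3 and 19.2 TPM in cKO libraries. The SRC family kinase gene Blk was at 4.34, 5.13 and 5.36 TPM and at 18.1, 17.3 and 15.3 TPM, and the T cell receptor adaptor gene Lat at 3.98, 7.0 and 5.14 TPM and at 15.4, 16.8 and 15.7 TPM. Each was 2 or more times as high in every cKO library as in its WT partner. Thy1 was at 7.43, 12.3 and 7.57 TPM and at 47.0, 28.4 and 36.8 TPM, and Fcgr2b, the inhibitory receptor for IgG, at 31.7, 33.4 and 41.8 TPM and at 93.7, 76.8 and 82.5 TPM. The phospholipase C gene Plcb4, which acts below G protein-coupled receptors, was at 8.82, 7.84 and 10.8 TPM and at 41.4, 40.0 and 34.4 TPM, and its relative Plcb1 rose from 0.40 to 0.50 TPM to 2.34 to 3.52 TPM.

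The genes of the CD3 complex, which defines T cells, were under 1 TPM in all libraries, and other T and B cell markers were not. Cd3e was at 0.24 TPM or less in every library, Cd3d at 0.60 TPM or less and Cd3g at 0.94 TPM or less. Of 11 T cell markers 4 were tested, and their list summed to 29.3 to 40.3 TPM in WT and 60.8 to 88.3 TPM in cKO libraries, 3.01, 1.51 and 1.93 times as high within the pairs. All 4 tested members had positive values (median 0.90), and besides Thy1 these were Lck (1.03, adjusted p = 0.125), Cd5 (0.77, 0.0656) and Cd28 (0.05, 0.883), while Cd6, below the filter, was at 0.26, 0.35 and 0.04 TPM in WT and 0.96, 1.25 and 0.94 TPM in cKO libraries. The part of T cells in these rises was not tested. The B cell receptor gene Cd79a was at 13.7, 2.95 and 3.97 TPM in WT libraries and at 38.3, 5.61 and 7.54 TPM in cKO libraries, so the groups overlapped. It was called with the block only (adjusted p = 0.00644). In pair 2, where Cd79a was at 2.95 TPM in the WT and 5.61 TPM in the cKO library, Cd22 was at 2.72 and 11.3 TPM and Blk at 5.13 and 17.3 TPM. Of 6 tested B cell markers 1, Cd22, rose, 5 had positive values, and the median was 0.62. The summed B cell list was 65.5 to 95.1 TPM in WT and 79.2 to 160 TPM in cKO libraries, 1.68, 1.21 and 1.39 times as high within the pairs. The part of B cells in the Cd22 and Blk values was not tested.

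Further rises had small errors and varied roles. Atp1b3, a beta subunit of the sodium-potassium ATPase (chromosome 9, 96332655 to 96364431), was at 177.1, 166.8 and 170.8 TPM in WT libraries and at 481.7, 463.7 and 502.4 TPM in cKO libraries (log2 fold change 1.49, SE 0.05, adjusted p = 2.92e-05), 2.72 to 2.94 times as high within the pairs, and it was the only call among 4 tested genes of this pump. Mzb1, a chaperone of the endoplasmic reticulum in antibody-secreting cells and pDCs, was at 122.1, 120.2 and 99.2 TPM and at 248.4, 232.0 and 263.9 TPM (1.12, SE 0.09, adjusted p = 0.00157). Of 2 tested plasma cell markers 0 were called: Sdc1 was at 7.82, 8.72 and 10.3 TPM and at 18.3, 12.3 and 13.9 TPM (0.66, adjusted p = 0.0601), and Jchain at 0.70 (0.339). Their list was 1.6, 1.5 and 1.61 times as high in sum within the pairs, and its part in the Mzb1 value was not tested. The other genes of the endoplasmic reticulum and the unfolded protein response did not follow it, with 0 of 29 called in either fit, a median of 0.05 and 5 at an unadjusted p under 0.05. Cep83, a gene of centriole appendages, was at 14.6, 13.7 and 12.9 TPM and at 39.1, 33.5 and 33.8 TPM, and the arrestin gene Arrb2 at 119.8, 125.6 and 127.8 TPM and at 188.5, 201.6 and 198.5 TPM. Cep83 and Arrb2 were named after their values were seen.

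**Figure D4:**
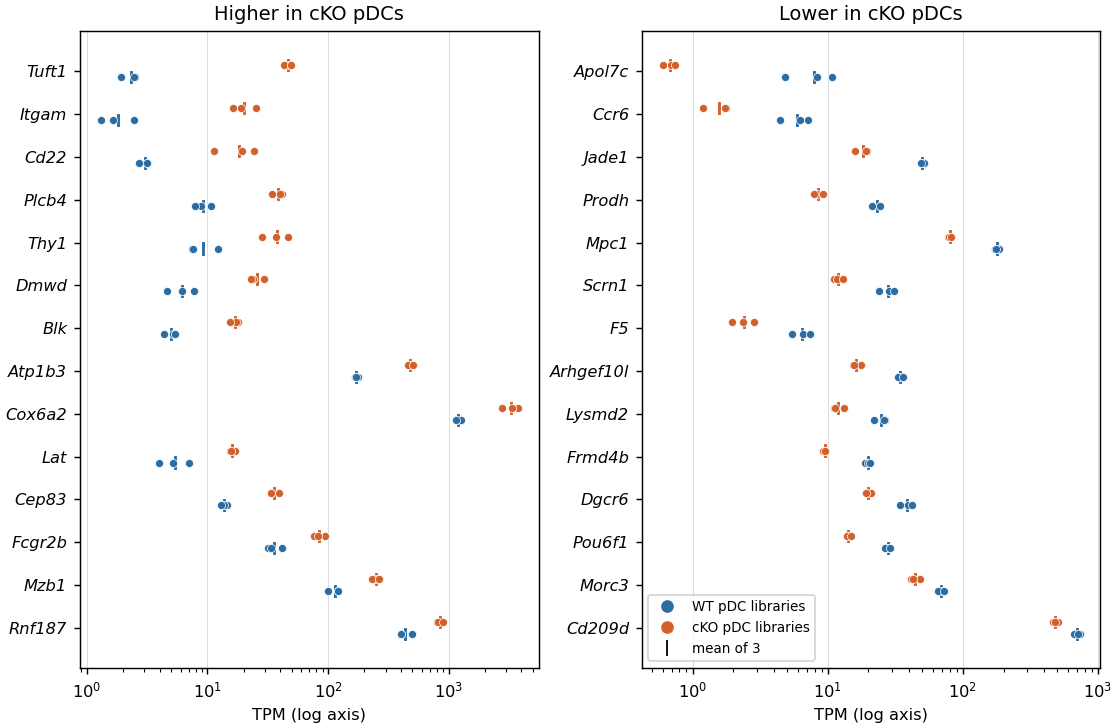
TPM (x axes, log scale) of 14 genes called higher (left) and 14 called lower (right) in cKO pDCs, by library, with WT in blue, cKO in orange and the mean of 3 as a bar. The groups are apart for every gene shown, as for all called genes, from Tuft1 (1.93 to 2.52 TPM in WT and 43.3 to 49.6 TPM in cKO libraries) to Cd209d (666.0 to 731.0 TPM and 466.1 to 502.2 TPM).

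The 27 falls were smaller than the rises, with a median log2 fold change of −0.90 against 1.62 for the rises, and 22 of them were on no list. Mpc1, a subunit of the carrier that brings pyruvate into mitochondria (chromosome 17, 8283787 to 8297667), was at 185.6, 173.2 and 177.0 TPM in WT libraries and at 78.1, 79.2 and 82.1 TPM in cKO libraries. Its partner Mpc2 was at 51.9 to 54.4 TPM and 43.6 to 53.1 TPM (log2 fold change −0.14, adjusted p = 0.366). Among 32 tested genes of pyruvate entry and the TCA cycle Mpc1 was the only call, and the list median was −0.01. Prodh, the mitochondrial enzyme that starts the breakdown of proline, was at 21.3, 24.2 and 24.2 TPM and at 8.37, 9.26 and 7.97 TPM, again the only call among its 7 proline genes (list median −0.06). Glycolysis genes had a median of 0.04 with 0 of 24 called in either fit and 6 at an unadjusted p under 0.05, and Gapdh had the lowest p (0.38, adjusted p = 0.0129).

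Jade1, a subunit of HBO1 histone acetyltransferase complexes (chromosome 3, 41555734 to 41616864), fell as well and was at 49.8, 51.5 and 48.6 TPM in WT libraries and at 19.5, 19.1 and 15.9 TPM in cKO libraries. The POU factor gene Pou6f1 was at 28.1, 26.5 and 28.7 TPM and at 13.8, 13.9 and 14.9 TPM, and the silencing ATPase gene Morc3 at 70.4, 65.7 and 72.0 TPM and at 48.0, 41.2 and 42.9 TPM (−0.65, SE 0.08, adjusted p = 0.00566). Chd3, a remodeller of the NuRD complex named after its values were seen, was at 38.7, 32.6 and 34.0 TPM and at 19.99, 19.8 and 15.99 TPM. Of 22 tested TIF1 family and silencing genes Morc3 was the only call, Trim33 joined it with the block, and the median was −0.01. The TRIM33 relatives Trim24 (0.27, adjusted p = 0.0782) and Trim28 (0.12, 0.287) were not called. Transcripts of the TGF-beta and SMAD pathway, in which TRIM33 is a known partner of SMAD proteins, had a median of −0.11 with 0 of 22 called in either fit and 7 at an unadjusted p under 0.05.

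The remaining named falls were genes of unrelated roles. The apolipoprotein L gene Apol7c was at 4.82, 8.33 and 10.8 TPM in WT libraries and at 0.60, 0.69 and 0.74 TPM in cKO libraries (log2 fold change −2.36, SE 0.25, adjusted p = 0.00307). Ccr6, the receptor of the chemokine CCL20, was at 7.19, 4.40 and 6.29 TPM and at 1.76, 1.73 and 1.19 TPM. The C-type lectin gene Cd209d was at 666.0, 731.0 and 715.0 TPM and at 466.1, 502.2 and 477.7 TPM (−0.55, SE 0.06, adjusted p = 0.00367), and Cd209c of the same family, named after its values were seen, was called lower too (−0.83, adjusted p = 0.00798). Coagulation factor V (F5) fell by 1.13 on the log2 scale, Scrn1 by 1.14, Lysmd2 by 1.00, Frmd4b by 0.98, Dgcr6 by 0.93 and the guanine nucleotide exchange factor gene Arhgef10l by 1.04. For each of the 27 falls the cKO libraries were all below the WT libraries.

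MHC class II genes lay lower as a group without a single call. Of 12 tested genes 0 were called in either fit, 12 had a negative log2 fold change, 10 were lower at an unadjusted p under 0.05 (background 11.9%), 11 had every cKO library below every WT library (background 16.7%), and the median was −0.51, between −0.48 and −0.47 under the 3 other scalings. H2-Aa was at 6561, 6019 and 6524 TPM in WT libraries and at 3792, 5034 and 4738 TPM in cKO libraries (log2 fold change −0.50, SE 0.11, adjusted p = 0.045). H2-Ab1 was at 5086, 4738 and 4989 TPM and at 2937, 3943 and 3481 TPM (−0.53, adjusted p = 0.0355). The peptide exchange factor gene H2-DMb2 was at 316.5, 226.4 and 271.6 TPM and at 127.5, 165.8 and 166.2 TPM (−0.82, adjusted p = 0.0211). Ciita, the master activator of these genes, was at 93.5, 56.0 and 72.7 TPM and at 48.6, 47.0 and 46.5 TPM (−0.60, adjusted p = 0.0828). In contrast the protease gene Ctss (−0.05) and H2-DMa (−0.07) were close to the median of all genes. The summed list fell short of WT in each pair, at 0.636, 0.876 and 0.776 times.

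cDC1 markers were looked at because cDC1s carry much MHC class II, although the study sorted cDC1s as SiglecH- cells, which the pDC gate leaves out. Of 7 tested cDC1 markers 0 were called in either fit, 7 had negative values, 3 were lower at an unadjusted p under 0.05, and the median was −0.29. Clec9a, which pDCs also express, was at 231.2, 211.3 and 217.9 TPM in WT libraries and at 185.0, 170.6 and 184.4 TPM in cKO libraries (−0.29, adjusted p = 0.0396), and Cadm1 at 22.8, 18.1 and 21.3 TPM and at 9.39, 13.3 and 12.6 TPM (−0.78, adjusted p = 0.0261). The defining cDC1 gene Xcr1 was at 2.13 to 2.64 TPM and 1.63 to 2.11 TPM. Of 9 tested cDC2 markers Itgam rose, Mgl2 was called with the block (0.55), Clec10a was at 0.44 and Cd209a at −0.37, and the median was 0.16. Whether stray cDCs had a part in the MHC class II values was not tested. MHC class I genes had a median of −0.11, with 0 of 16 called in either fit and 6 lower at an unadjusted p under 0.05, led by H2-Q7 (−0.40, adjusted p = 0.0348).

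**Figure D5:**
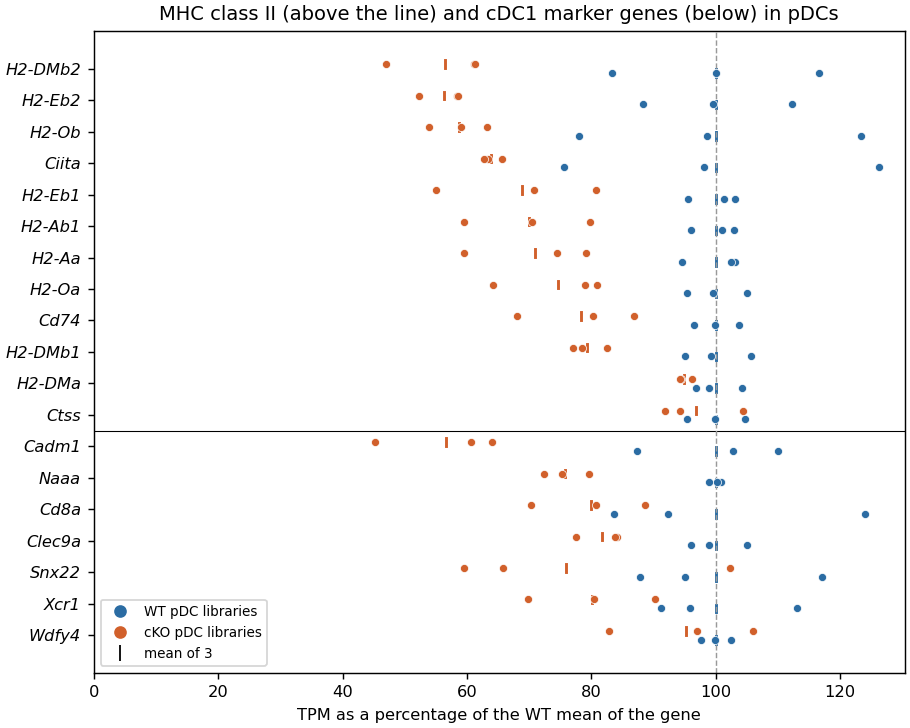
TPM as a percentage of the WT mean of each gene (x axis) for 12 MHC class II genes and 7 cDC1 markers (y axis) in each WT (blue) and cKO (orange) pDC library, with the mean of 3 as a bar. For 11 of the 12 MHC class II genes all cKO libraries lie to the left of all WT libraries, and Ctss overlaps.

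Interferon-stimulated genes leaned upward by small amounts. Of 49 tested genes 1 rose and 0 fell (9 higher with the block), 43 had positive values, 26 were higher at an unadjusted p under 0.05 (background 8.89%), and the median was 0.24, or 0.25 to 0.27 under the other scalings. Ifitm3, which blocks virus entry at membranes, was at 72.7, 50.2 and 49.8 TPM in WT libraries and at 160.2, 117.7 and 128.9 TPM in cKO libraries (log2 fold change 1.23, SE 0.17, adjusted p = 0.00849). Genes called only with the block were Oas2 (0.92, adjusted p = 0.00477), Ifi204 (0.76, 0.00826), Slfn5 (0.64, 7.87e-04), Oasl2 (0.62, 0.00237), Usp18 (0.58, 0.00263), Zbp1 (0.55, 0.00237), Isg15 (0.53, 0.00198) and Ifit2 (0.52, 0.00683). Of the upstream machinery, 0 of 16 interferon receptor, JAK and SOCS genes were called in either fit (4 at an unadjusted p under 0.05), and their median was −0.05. Ifnar1, a chain of the receptor, was at 169.3, 153.0 and 168.1 TPM and at 129.3, 146.1 and 134.7 TPM (−0.26, adjusted p = 0.0835). Among 22 nucleic acid sensing genes 0 were called and 4 were at an unadjusted p under 0.05, the median was −0.07, and the cytosolic DNA sensor Cgas was called with the block (0.97, adjusted p = 0.00644), while Tlr7 was at −0.19 (adjusted p = 0.0744).

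Most of the identity genes of pDCs were not called. Of 22 transcription factors of pDC development and their antagonists 0 were called (5 at an unadjusted p under 0.05), and the median was −0.03. Irf8 was at 3656, 3933 and 3563 TPM in WT libraries and at 3410, 3665 and 3489 TPM in cKO libraries (log2 fold change −0.08, SE 0.06, adjusted p = 0.54). Tcf4 was at 485.8, 475.3 and 472.2 TPM and at 441.1, 437.9 and 384.8 TPM (−0.18, SE 0.06, adjusted p = 0.163). Spib (−0.02), Runx2 (0.03), Xbp1 (−0.05) and Bcl11a (−0.13) had adjusted p values of 0.462 to 0.94. The antagonists of TCF4 were called with the block only: Id3 was at 8.50, 22.7 and 10.7 TPM and at 37.7, 44.3 and 30.8 TPM (1.47, adjusted p = 0.0431, 0.00267 with the block), and Id2, which favours conventional DCs, at 14.3, 15.1 and 17.98 TPM and at 23.3, 19.6 and 26.0 TPM (0.51, 0.00875 with the block). Of 23 surface and cytoplasmic identity genes Mzb1 rose and Cd209d fell, 21 were not called, and the median was −0.07. At an unadjusted p under 0.05, 8 of the 23, or 34.8%, were lower (background 11.9%) and 3 were higher (background 8.89%). All cKO libraries were below all WT libraries for 8 of the 23 (background 16.7%), among them Siglech (−0.13, adjusted p = 0.328) and Klra17 (−0.31, 0.0397). Ly6c2 was at 0.17, Ly6d at 0.07, Plac8 at −0.07 and Klk1 at −0.16, with adjusted p values of 0.214 to 0.681.

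The lists of death and survival genes gave 0 calls without the block, and Birc5 (survivin), called higher, was counted with the spindle genes. Of 18 proapoptotic genes 0 were called without the block and 2 with it, 8 were at an unadjusted p under 0.05, and the median was 0.05. Bcl2l11 encodes BIM, a BH3-only protein that triggers apoptosis. The study, with a count model, reported it as upregulated in all DC subsets. Its level here was 13.6, 21.0 and 13.2 TPM in WT libraries and 33.3, 34.3 and 33.0 TPM in cKO libraries. Its log2 fold change was 1.06 (SE 0.16), with a limma adjusted p of 0.0132, and 0.00191 with the block, where it was called. Bid, which links death receptors to mitochondria, was called with the block as well (0.54, adjusted p = 0.00318), whereas Bak1 (0.43) stayed under the fold limit and Bbc3 (−0.11) and Bax (0.15) had adjusted p values of 0.87 and 0.223. Of 11 antiapoptotic genes 0 were called in either fit and 4 were at an unadjusted p under 0.05: Bcl2 was at 3.77, 5.81 and 4.74 TPM and at 10.5, 12.7 and 6.87 TPM (0.91, adjusted p = 0.0632), and Birc3 at 174.4, 156.8 and 158.5 TPM and at 120.4, 120.1 and 126.2 TPM (−0.41, adjusted p = 0.0122).

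Heat shock genes were higher in sum in cKO libraries, by unequal amounts. Their sums were 5220, 5243 and 7343 TPM in WT libraries and 11959, 10017 and 7479 TPM in cKO libraries, so the groups did not overlap but were close in pair 3. Of 18 genes 0 were called in either fit, 17 had positive values, 9 were higher at an unadjusted p under 0.05, and the median was 0.40. In blocked fits 5 were called higher without pair 3 and 3 without pair 2. The inducible Hspa1a was at 57.2, 15.6 and 343.3 TPM in WT libraries and at 1439, 565.2 and 403.9 TPM in cKO libraries (log2 fold change 3.32, adjusted p = 0.115), so WT library 3 and cKO library 3 were close to each other. The summed list was 2.29, 1.91 and 1.02 times as high in the cKO library of pairs 1, 2 and 3, in the same order as the cell cycle sum, and its part in the cell cycle values was not tested. In pair 3, with a heat shock ratio of 1.02, Top2a was 9.25 times, Rrm2 9.79 times and Stmn1 4.85 times as high in the cKO library.

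Ribosomal protein genes had a median of 0.02 (0 of 81 called in either fit, 6 at an unadjusted p under 0.05), ribosome biogenesis genes 0.00 (0 of 25, and 1), lysosomal genes 0.02 (0 of 23, and 1) and sterol and fatty acid synthesis genes 0.01 (0 of 32, and 3, with Elovl6 called with the block). Immediate-early genes had a median of −0.10 with 0 of 21 called and 4 at an unadjusted p under 0.05, and among them the ERK phosphatase gene Dusp2 was called with the block (0.93, adjusted p = 6.64e-04). Of 18 DC maturation genes Apol7c was the only call (median −0.12). Single genes were called with the block among amino acid response genes (Psat1, 0.51; median of 18 genes 0.05), chemokines and cytokines (Tnf, 0.60; median of 13 genes 0.06) and migration genes (Cx3cr1; median of 15 genes −0.02), and 0 of 10 growth factor receptors were called, led by Csf1r (0.80, adjusted p = 0.0336; list median −0.05). Hemoglobin genes, a sign of red cell RNA, varied without regard to group, with Hba-a2 at 584.6 to 2168 TPM in WT and 414.6 to 2149 TPM in cKO libraries.

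The pDC calls were then set beside the conventional DC libraries of the same study, which were fitted in a table of their own (2 WT and 2 cKO libraries of cDC1s, 3 and 3 of cDC2s). By the same rule the background there was 15.8% higher and 6.56% lower for cDC1s, and 3.59% and 3.56% for cDC2s. Of the 42 cell cycle genes that rose in pDCs, 33 were called higher in cDC1s and 13 in cDC2s, with medians of 1.19 and 0.62. Over all 340 cell cycle list genes tested in the cDC table, 196 were called higher and 5 lower in cDC1s (median 0.94). In cDC2s 69 were higher and 5 lower (median 0.40), against 42 higher and 0 lower of 303 in pDCs (median 0.52). Of the 50 other rises 44 were tested there, of which 25 were called higher and 2 lower in cDC1s and 21 higher and 2 lower in cDC2s. Of the 27 falls 25 were tested, 5 were called lower in cDC1s, 5 lower and 1 higher in cDC2s, and the median log2 fold changes were −0.01 and −0.14. Atp1b3 (2.78 in cDC1s and 4.76 in cDC2s, against 1.49 in pDCs), Cox6a2 (3.53 and 3.35, against 1.46) and Tuft1 (5.77 and 4.69, against 3.86) had larger values there, and the mitotic genes Top2a (1.34 and 0.61, against 3.13) and Ccnb2 (0.64 and 0.12, against 2.67) had smaller ones. Top2a and Ccnb2 were named as members of the 12 largest pDC rises, so they do not stand for the cell cycle lists. Mpc1 had values of −0.01 in cDC1s and −0.08 in cDC2s. Bcl2l11, called in pDCs only with the block (1.06), was called higher in cDC1s (0.90, limma adjusted p = 0.00159) and cDC2s (2.17, 6.38e-06). No test was made across the 2 tables, so these differences between subsets were not tested.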

How the data were processed

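RNA-seq had been done on sorted splenic DCs. The authors filtered 50-base single-end reads, mapped them to mm10 with HISAT2 2.0.4 and, for expression, to a reference with Bowtie2 2.2.5, and estimated abundance with RSEM 1.2.12. The TPM and FPKM values were deposited by the authors per gene and library. The count model used in the study for DCs cannot take such values. Symbols and coordinates were matched through RefSeq (GRCm38.p6), which named 17079 of 17128 pDC genes. For the 11299 genes whose mean TPM reached 1, limma 3.58.1 (lmFit, eBayes with trend; R 4.3.3) compared the groups on log2(TPM + 1), two-sided, with Benjamini-Hochberg adjustment over these genes. Called genes had an adjusted p no higher than 0.01 and a log2 fold change of 0.5 or more in size. The cDC table was fitted separately with 4 group means (11411 genes). Errors are SE of log2 fold changes.

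Deviations from the group means correlated at 0.31, 0.392 and 0.206 for same-numbered WT and cKO libraries and at −0.285 to −0.0334 otherwise. Such deviations cancel within a group, so positive values for some pairings force negative ones for others, and the negative values are no separate evidence. The numbers, given by the labels, were taken as pairs, and blocked values are printed where they change a call. The labels do not say what same-numbered libraries share. Pooled cells from several mice formed each library, and no 2 libraries were identical. The Y-chromosome gene Eif2s3y did not follow the pairs, at 87.5, 14.9 and 31.2 TPM in WT and 18.0, 81.8 and 64.5 TPM in cKO libraries. The sex of the pooled mice is not in the labels, and its part in the calls was not tested. P-values measure the spread between these 6 libraries.

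Low deposited values are spaced by what 1 read is worth, which gave the depth. The fit was tested on simulated data. Plots were made with Python 3.11.15, pandas 2.3.3, numpy 2.4.6 and matplotlib 3.10.9. The members, the 51 gene lists and the motifs were chosen with earlier results of these data known. Genes named by rule are Trim33, Bcl2l11 and Irf8, the 12 largest rises and falls, up to 6 called genes of each list (otherwise up to 3 with the lowest p), the 6 most abundant genes of each pDC identity list and the top marker of each cell type. All further genes in the text follow no rule. They were picked as examples with their values known, also where this is not said beside them. Tuft1 had no promoter entry in the table used.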

Additional observations from a re-analysis of the deposited data

Results flagged for a closer look

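Some genes that fell in pDCs had positive log2 fold changes in a conventional subset. Of all 10619 genes tested in both tables, 7048 were positive in cDC1s (median 0.19) and 4988 in cDC2s (median −0.02). By the calling rule only the Arhgef10l value in cDC2s below was called there. The difference between subsets was not tested, and cDC1s had 2 libraries a group. Jade1 had a log2 fold change of −1.42 in pDCs and 0.55 in cDC1s (limma adjusted p = 0.0241 in cDC1s). Prodh was at −1.35 and 0.58 (0.0145), Dgcr6 at −0.93 and 0.39 (0.0906), Morc3 at −0.65 and 0.34 (0.0182), and Arhgef10l at −1.04 in pDCs and 1.30 in cDC2s (0.00484). Cd209d was at −0.55 in pDCs, 1.07 in cDC1s (0.0468) and 0.49 in cDC2s (0.294).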

How the results depend on the processing

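The 119 calls (92 higher, 27 lower) became 335 (260, 75) with the replicate block, which kept all 119, 24 (16, 8) without a filter on low genes, 56 (43, 13) without the eBayes trend, 514 (332, 182) at an adjusted p of 0.05 with no fold limit, and 84 with 9 lower at a fold limit of 1. Leaving out 1 library gave 12 to 97 calls, 10 to 85 higher and 2 to 17 lower. In blocked fits chosen after seeing the data, 308 (234, 74), 554 (402, 152) and 86 (8 lower) were called without pair 1, 2 and 3, and Hba-a2, at −0.01, was called at 1.17 without pair 2. Other scalings and pseudocounts gave 109 to 143 calls. Of 56 named called genes, 49 kept their call with FPKM, 54 with median-of-ratios scaling, 48 with quantile normalization 56 with either other pseudocount or the block, 36 with the block without pair 3, 27 without the trend and 14 without the filter; over the 6 fits that leave out 1 library, 153 calls were kept and 183 lost. None reversed in these fits. Calls on the cell cycle lists numbered 3 without a filter on low genes and 15 without the trend, against 42. Of the uncalled named genes, 9 changed sign under some alternative, among them Spib, Runx2, Xbp1 and Bst2. The causes were not tested. Depth limits genes under about 0.2 TPM.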

Other observations

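A few genes known as feedback regulators or targets of ERK signalling had higher values without Trim33. They were picked after their values were seen and represent no list, and immediate-early genes, many of them ERK targets too, had a median of −0.10 with 13 of 21 negative. Spred1, an inhibitor of RAS signalling, was at 5.35, 4.77 and 5.45 TPM in WT libraries and at 11.96, 11.2 and 11.2 TPM in cKO libraries and was called (log2 fold change 1.01, limma adjusted p = 0.00258). Its relative Spred2 (0.64, adjusted p = 0.00992), the ERK phosphatase gene Dusp6 (1.43, 6.64e-04) and the ETS factor gene Etv5 (1.66, 0.00145) were called with the replicate block only. Dusp6 was at 19.9, 22.03 and 29.4 TPM and at 47.2, 81.6 and 70.4 TPM, and Etv5 at 4.42, 6.87 and 10.3 TPM and at 23.8, 22.8 and 24.7 TPM. For each of these genes every cKO library was above every WT library (background 10.8%).

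Other genes called with the block only included the intermediate filament gene Vim (1.31, limma adjusted p = 8.46e-05; 205.8, 217.7 and 131.3 TPM in WT and 506.7, 496.6 and 362.0 TPM in cKO libraries), Snai1 (1.92, 8.85e-04), Anxa2 (0.89, 7.45e-04) and Lgals3 (0.87, 2.15e-04), and Axl, a receptor tyrosine kinase gene of transitional DCs, was at 8.64, 10.2 and 8.35 TPM and at 16.9, 15.6 and 21.1 TPM (0.90, 0.00543). They too were chosen after their values were seen, and the migration list, for comparison, had 0 of 15 called and a median of −0.02.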
